A study of Homo sapiens with 8 samples.

Results

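The regions described here are stretches of open chromatin that were called in U-937 cells whenever the compound Corin was present and in neither group without it. They were chosen from the authors' peak calls. Overlapping peaks of 4 lists, 1 per treatment, on the numbered chromosomes, X and Y were merged into union regions. A region was kept when a peak of the Corin list and a peak of the combination list overlapped it and no peak of the DMSO or ATRA list did. Of 161291 union regions, 2428 met this rule, which is 1.51% of the total. They made up 3.27% of the 74220 union regions called with both Corin and the combination. Because the calls in the 4 lists chose the regions, neither their number nor their strength in the Corin and combination lists is a test of anything, and both are given as descriptions.

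U-937 is a human monocytic leukaemia line. The 8 samples comprised 4 groups of 2, namely cells given DMSO as vehicle, cells given all-trans retinoic acid (ATRA) at 0.1 µM, cells given Corin at 0.1 µM, and cells given ATRA and Corin at 0.1 µM each, called the combination here; all were treated for 24 h. Open chromatin was measured by ATAC-seq, in which a transposase inserts sequencing adapters into accessible DNA. All 4 groups are the same line with no genetic change named in the labels, so the data concern this line alone. The peak lists held 1 set of calls per group, made with the replicates combined, so the variation between replicate cultures cannot be seen in any value here and no test between treatments was made.

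CoREST is a co-repressor complex that carries the histone demethylase LSD1 and the histone deacetylases HDAC1 and HDAC2, and Corin is a small molecule that inhibits both enzyme activities. GFI1 is a zinc finger repressor of blood cells that brings LSD1 and CoREST to DNA through its SNAG domain, and it binds sites built on the letters AATC. AP-1 is a family of dimers of FOS, JUN and related proteins that bind TGAGTCA, often at enhancers induced by stimuli. Heat shock factors bind heat shock elements, which are alternating copies of TTC and GAA, and induce chaperone genes. PU.1, C/EBP and RUNX factors occupy many enhancers of the monocytic lineage.

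To show what the strongest of these regions look like, the regions were ranked by the lower of their 2 within-list percentiles of −log10 p, the authors' measure of peak significance. The reference sequence (hg38, plus strand, 5′ to 3′) of the 200 bp around the Corin summit is given for 9 of the 10 highest-ranked ones, each named for the nearest protein-coding transcription start. Capitals mark AP-1 letters (TGAGTCA or its complement), and 3 of these windows hold them.
BCL10, chr1:85278921-85279120: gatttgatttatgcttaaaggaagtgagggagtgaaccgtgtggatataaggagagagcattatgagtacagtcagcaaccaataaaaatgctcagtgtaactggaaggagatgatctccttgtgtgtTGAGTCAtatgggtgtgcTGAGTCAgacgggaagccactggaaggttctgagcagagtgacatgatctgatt
ITGA6, chr2:172516359-172516558: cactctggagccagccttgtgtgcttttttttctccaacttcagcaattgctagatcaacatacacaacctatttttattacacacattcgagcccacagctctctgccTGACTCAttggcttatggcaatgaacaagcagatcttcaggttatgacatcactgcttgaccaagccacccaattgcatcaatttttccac
STIM1, chr11:3859624-3859823: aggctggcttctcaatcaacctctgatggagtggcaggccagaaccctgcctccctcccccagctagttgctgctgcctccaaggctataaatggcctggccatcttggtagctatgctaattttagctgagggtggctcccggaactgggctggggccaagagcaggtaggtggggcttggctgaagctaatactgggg
FOXN2, chr2:48114356-48114555: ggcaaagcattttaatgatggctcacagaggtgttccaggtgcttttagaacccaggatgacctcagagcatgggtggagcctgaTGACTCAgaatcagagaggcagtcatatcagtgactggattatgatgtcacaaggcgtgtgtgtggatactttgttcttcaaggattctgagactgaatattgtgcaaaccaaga
RASA3, chr13:114064172-114064371: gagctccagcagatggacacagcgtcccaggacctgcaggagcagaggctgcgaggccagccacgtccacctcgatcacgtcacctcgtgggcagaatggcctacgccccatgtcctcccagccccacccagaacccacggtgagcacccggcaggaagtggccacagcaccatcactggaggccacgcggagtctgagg
VNN2, chr6:132746148-132746347: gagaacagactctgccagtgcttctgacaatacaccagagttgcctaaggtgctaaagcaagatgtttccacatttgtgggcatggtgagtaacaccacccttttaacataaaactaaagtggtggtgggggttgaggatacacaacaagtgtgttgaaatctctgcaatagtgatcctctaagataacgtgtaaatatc
ST3GAL3, chr1:43833070-43833269: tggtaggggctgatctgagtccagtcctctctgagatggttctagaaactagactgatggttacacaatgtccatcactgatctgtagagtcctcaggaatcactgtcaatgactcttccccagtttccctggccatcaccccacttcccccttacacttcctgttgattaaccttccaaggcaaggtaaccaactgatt
IFT80, chr3:160296664-160296863: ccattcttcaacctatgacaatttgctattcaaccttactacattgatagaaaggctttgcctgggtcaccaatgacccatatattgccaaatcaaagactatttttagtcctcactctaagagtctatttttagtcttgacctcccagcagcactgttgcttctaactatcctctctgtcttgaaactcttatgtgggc
SVIL, chr10:29636305-29636504: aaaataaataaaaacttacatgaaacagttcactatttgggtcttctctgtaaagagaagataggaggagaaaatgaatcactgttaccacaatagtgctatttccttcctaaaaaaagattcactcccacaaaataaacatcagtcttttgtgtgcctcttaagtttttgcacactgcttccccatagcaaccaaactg

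The next set shows windows of 80 bp around a heat shock element, for 4 of the 5 highest-ranked regions that have one, and for a region in an intron of ATF3. The element searched was the pair TTCNNGAA followed by 2 further bases and another TTC, or its complement, and capitals mark it. In the NTSR1 window the copies run on into one another, so that the element matches there at 3 overlapping positions.
NTSR1, chr20:62733457-62733536: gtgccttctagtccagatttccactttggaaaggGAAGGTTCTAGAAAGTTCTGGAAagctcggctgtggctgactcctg
ADGRV1, chr5:91048250-91048329: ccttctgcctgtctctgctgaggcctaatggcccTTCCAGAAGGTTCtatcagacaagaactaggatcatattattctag
BACH2, chr6:90103473-90103552: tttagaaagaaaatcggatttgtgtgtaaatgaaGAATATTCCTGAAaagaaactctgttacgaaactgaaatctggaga
RHOU, chr1:228670553-228670632: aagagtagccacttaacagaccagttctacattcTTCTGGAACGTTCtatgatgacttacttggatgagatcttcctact
ATF3, chr1:212578164-212578243: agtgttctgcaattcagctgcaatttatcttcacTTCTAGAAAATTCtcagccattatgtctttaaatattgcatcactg

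The last set shows 80 bp around the GFI1 letters (AATCACNGC or its complement) in 3 of the 4 highest-ranked regions that have them, with those letters in capitals.
EPAS1, chr2:46239317-46239396: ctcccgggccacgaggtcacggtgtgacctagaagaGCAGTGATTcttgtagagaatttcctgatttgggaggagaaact
ADH7, chr4:99447258-99447337: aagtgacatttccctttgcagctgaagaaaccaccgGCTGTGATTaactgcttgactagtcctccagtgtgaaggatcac
MOB3A, chr19:2083666-2083745: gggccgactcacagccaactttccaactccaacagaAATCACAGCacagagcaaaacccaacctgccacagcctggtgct

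The DMSO list had 222491 peaks, the ATRA list 222110, the Corin list 189896 and the combination list 197548. Read depth per sample was not analysed here. The most frequent local background, a level that grows with depth, was lowest in the ATRA list, at 9.12 reads, against 12.8 in the DMSO list, 13.1 in the Corin list and 13.9 in the combination list. The DMSO list also began at a higher strength, with a lowest −log10 p of 2.79 against 2.00 in the other lists. The starts of 8 monocytic marker genes, among them SPI1, which encodes PU.1, and CEBPA, all had a peak with DMSO and with ATRA, and 7 had one with Corin and with the combination, CSF1R being the exception.

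Most of the 2428 regions were weak. In the Corin list their median −log10 p was 8.22 (quartiles 5.61 and 17.5), their median fold over local background was 2.48, and their median rank was at percentile 19.1 of that list. In the combination list the median −log10 p was 8.02 (quartiles 5.51 and 15.5), with a fold of 2.44 and percentile 12.2. A typical region thus had a summit of 46 reads over a background of 15.8 with Corin, and of 45 reads over 15.6 with the combination. Only 24 regions stood in the stronger 50% of both lists, 719 had a −log10 p of at least 10 in both, and 39 had at least 50 in both.

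**Figure D1:**
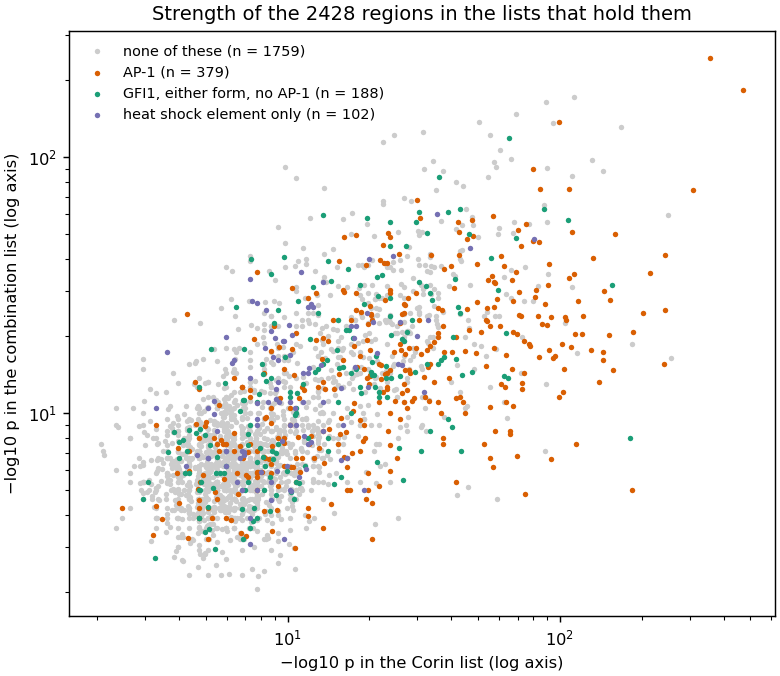
Each point is one of the 2428 regions, with its −log10 p in the Corin list (x axis) and in the combination list (y axis). Both axes are log axes. Colours show the motif letters in the 200-bp window centred on the Corin summit of the region. Most points lie near the medians of 8.22 and 8.02, and AP-1 points are frequent at the right, where the Corin value is high.

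The Corin and combination lists ranked the regions alike only in part. Spearman's rho between the lists was 0.633 for −log10 p and 0.582 for fold over the 2428 regions, against 0.888 and 0.855 over the 66303 regions called in all 4 lists, which cover a wider range of strength. Summits of the 2 lists lay a median of 34 bp apart, and within 50 bp of each other in 57.7% of the regions. This agreement followed strength. When the regions were divided into 4 classes of equal size by Corin −log10 p, the median summit distance was 128 bp in the weakest class and 11 bp in the strongest, with 92.4% within 50 bp. The position of a weak region is therefore less well fixed than that of a strong one.

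The edge of the rule can be read from the neighbouring calls. The nearest DMSO or ATRA peak was a median of 2522 bp away (quartiles 865 and 6487 bp), with 39 regions within 100 bp and 381 (15.7%) within 500 bp. Just outside the rule, 3953 regions were also called with DMSO and 1536 also with ATRA. The DMSO peaks of the former had a median −log10 p of 11.1 and a lowest value of 2.86, and the ATRA peaks of the latter had a median of 25.6 and a lowest value of 2.02. Among the regions kept, 36 had a peak under the lowest DMSO value in the Corin or combination list, so a DMSO peak of that strength could not have been listed. The number kept depended on the threshold. Requiring a −log10 q of at least 5 in every list left 1432 regions, and trimming every list to the length of the shortest gave 4041.

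The 20 highest-ranked regions had Corin −log10 p values between 54.5 and 469.7 and combination values between 83.9 and 244. Of these, 12 lay in introns, 5 at promoters (within 1 kb of an annotated start) and 3 between genes. Summits agreed within 30 bp in 19 of 20 cases. In 11 of the 20 the local background was at least 5 times the most frequent one in both lists, which held for the Corin background of 5.15% of all 2428 regions. High −log10 p in this group therefore often went with a modest fold over a high background, and only 5 of the 20 had a fold of at least 5 in both lists.

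**Figure D2:**
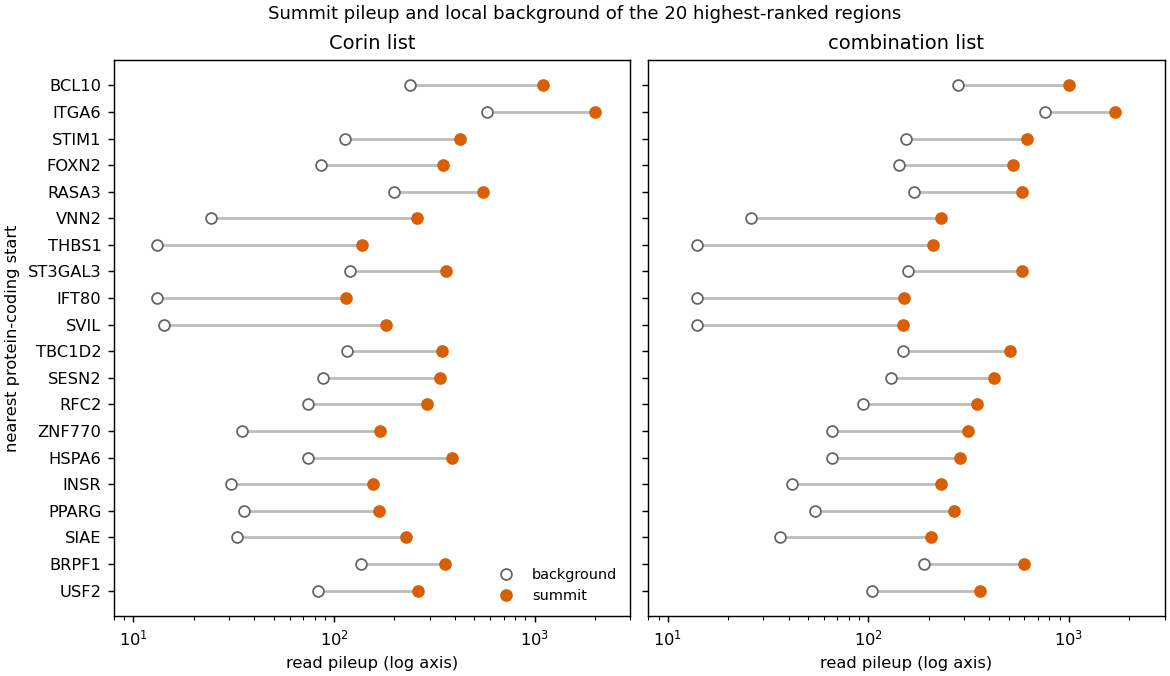
Summit pileup (filled) and local background (open) in reads on a log axis, in the Corin list (left) and the combination list (right), for the 20 highest-ranked regions named by the nearest protein-coding start. The regions by ITGA6 and BCL10 rise over the highest backgrounds, and those by THBS1, IFT80 and SVIL over backgrounds near 13.1 to 14.3 reads.

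The highest-ranked region lay 2206 bp from the nearest annotated transcript start of BCL10, an adaptor of NF-kappa-B signalling in lymphocytes. Its summit reached 1101 reads over a background of 240.1 with Corin (fold 4.57) and 1000 over 278 with the combination (fold 3.58). It lay in an intron of a gene that does not code for protein, and its window, printed above, holds 2 AP-1 matches. The next region lay 9701 bp beyond the 3′ end of ITGA6, which encodes the integrin alpha-6 subunit of laminin receptors, and 25232 bp from the nearest of that gene's annotated transcript starts. It had the highest Corin −log10 p of all, 469.7, from 2011 reads over 577 (fold 3.48), and 1690 over 762 with the combination (fold 2.21). Both therefore stood out by read number more than by fold.

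Other regions reached a high rank from fewer reads. The region in an intron of VNN2, a cell-surface pantetheinase found on leukocytes, reached 260 reads over a background of 24.2 with Corin (fold 10.3) and 230 over 26.0 with the combination (fold 8.56). The region in SVIL, which encodes the actin-binding protein supervillin, had a fold of 12 with Corin and 10.0 with the combination, and that in IFT80, an intraflagellar transport gene, had 8.21 and 10.1. A region 317328 bp from the nearest coding start, that of THBS1, had a fold of 9.83 with Corin and 14.1 with the combination, and its nearest DMSO or ATRA peak was 27118 bp away. These 4 windows hold no AP-1, GFI1 or heat shock letters.

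Other regions of the 20 lay in or near the following genes. HSPA6, a strictly inducible member of the HSP70 family, held one in its gene body at 430 bp from the start (chr1:161524970-161525325), with 387 reads over 74.2 with Corin (fold 5.16) and 285 over 65.6 with the combination (fold 4.29). A peak of the DMSO or ATRA list lay 115 bp from it, and HSPA6 has a near-identical neighbour, HSPA7, so that reads may be split between them. PPARG, a nuclear receptor of lipid metabolism, had a region in an intron with a fold of 4.61 and 4.89. INSR, the insulin receptor gene, had one in an intron with a fold of 4.99 and 5.42. The remaining regions lay nearest to STIM1, FOXN2, RASA3, ST3GAL3, TBC1D2, SESN2, RFC2, ZNF770, SIAE, BRPF1 and USF2, with Corin folds between 2.61 and 6.82. SIAE, which encodes a sialic acid esterase, had the highest of these and BRPF1, a chromatin reader, the lowest.

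Away from the strongest regions, the 2428 were less often at promoters than union regions are in general. Promoters held 14.4% of them (95% Wilson interval 13.1 to 15.9%), against 20.7% of all union regions. This was not particular to them, with 12.7% for ATRA and the combination only and 13.5% for DMSO and ATRA only. In the weaker classes of Corin −log10 p, promoters held 15.3%, 15.3% and 13.9% of the regions described. Other Corin regions of the same ranges had 15.4%, 16.4% and 14.2%. In the strongest class the shares were 13.2% and 21.4%. Introns held 43.2% and exons 8.94%, close to the 43.6% and 8.08% of all union regions, and 33.4% lay between genes against 27.7%. Their windows had a median GC content of 52.5%, above the 49.5% of all union regions and the 43.0% of the 5165 regions called with ATRA and the combination only. Regions called with Corin alone also had a median of 52.5%, with 53.5% for DMSO alone and 54.5% for the combination alone. Wilson intervals here and below cover counting error over regions only.

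AP-1 letters stood in 15.6% of the 200-bp windows (379 regions, interval 14.2 to 17.1%), against 9.58% of all union regions. The reversed letters, which have the same composition and no known factor, were found in 3.995% and 3.34%. Among the 5165 regions called only with ATRA and the combination the share was 3.33%, and among the 8298 called only with DMSO and ATRA it was 3.90%. AP-1 letters were thus more frequent in the regions described than in either of those sets, with the intervals apart.

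The GFI1 letters AATCACNGC were found in 46 regions, or 1.89% (interval 1.42 to 2.52%), against 0.626% of all union regions. A wider form, AATCNCAG, was searched after all 8-letter words had been counted and is called AATC-type below. It stood in 8.61% of windows (interval 7.56 to 9.79%) against 4.33% of all union regions. The open letter mattered. AATCTCAG was found in 2.88% of the regions against 0.994% of all union regions, and AATCACAG in 2.51% against 1.09%. AATCCCAG, which also occurs in the consensus of the Alu repeat, was found in 3.38% against 2.17%.

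Heat shock elements, also searched after the 8-letter words were counted, stood in 118 regions, or 4.86% (interval 4.07 to 5.79%), against 0.625% of all union regions. Among the 8-letter words found in at least 30 of these regions, TTCTAGAA had the highest ratio to all other regions. It is the core of 2 such copies and stood in 2.39% against 0.638%. GAACATTC came next with 2.02% against 0.604%. The words and the element were counted in the same regions, so neither lends weight to the other. The pair TTCNNGAA alone was closer to the background, at 8.11% against 5.62%. More than 1 element was present in 18 of the 118 regions, and the others had 1.

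Over all strengths, PU.1, RUNX and C/EBP letters were scarcer than in union regions overall. PU.1 letters (GAGGAAGTG) were found in 0.988% against 2.79%, RUNX letters (TGTGGTTT) in 2.88% against 3.82%, and C/EBP letters (TTGCNNAA) in 11.8% against 14.5%. RUNX letters stood in 4.05% of the regions left by a −log10 q of at least 5. The share of union regions at that threshold was not determined, so whether RUNX letters were scarcer there was not tested. CTCF letters (AGGGGGCGC) were found in 0.329% against 0.781%, and the left part of the RE1 element, TTCAGCACC, in 0.329% against 0.290%. The retinoic acid receptor element DR5 was found in 0 of the 2428 windows, which allows a share of up to 0.124% by counting error, and in 0.0180% of all union regions. In all, 669 regions (27.6%) had AP-1, GFI1, AATC-type or heat shock letters, and 1759 (72.4%) had none of these. The motif classes seldom met in one window, with AP-1 beside GFI1 or AATC-type letters in 44 regions and beside a heat shock element in 9.

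The motifs were partly separated by which other list called a region. Of the regions called with both Corin and the combination, those also called with DMSO but not ATRA had heat shock elements in 4.07%, close to the 4.86% of the regions described. Those also called with ATRA had them in 0.391% when DMSO did not call them and in 0.279% when it did. Heat shock elements therefore went with the lack of an ATRA call, whether or not the region was called with DMSO. AP-1 letters were also more frequent without an ATRA call, at 15.6% and 19.5%, than with one, at 11.7% and 10.8%. So were the E-box letters CAGGTG, at 21.7% and 22.1% against 8.59% and 9.96%.

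Among regions called with both Corin and the combination, GFI1 and AATC-type letters followed the DMSO call in place of the ATRA call. GFI1 letters stood in 1.89% of the regions described and in 2.08% of those also called with ATRA, against 0.683% and 0.661% where DMSO called the region. AATC-type letters gave 8.61% and 8.20% without a DMSO call, and 4.65% and 3.83% with one. Within them AATCTCAG showed the widest gap, at 2.88% and 3.26% without a DMSO call and 0.860% and 0.854% with one. PU.1 letters went the other way from heat shock elements, at 0.988% and 0.784% without an ATRA call and 4.17% and 3.37% with one. With lists of equal length heat shock elements were at 3.81% and 3.16% without an ATRA call and 0.275% and 0.264% with one, and GFI1 letters at 1.66% and 1.72% without a DMSO call and 0.893% and 0.642% with one. AP-1 letters were then at 13.9% and 26.4% without an ATRA call and 9.28% and 10.5% with one. Among regions without an ATRA call, the AP-1 share thus also differed with the DMSO call. The ATRA list had the lowest background and its regions the lowest GC content. The part of depth and GC content in these shares was not tested.

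**Figure D3:**
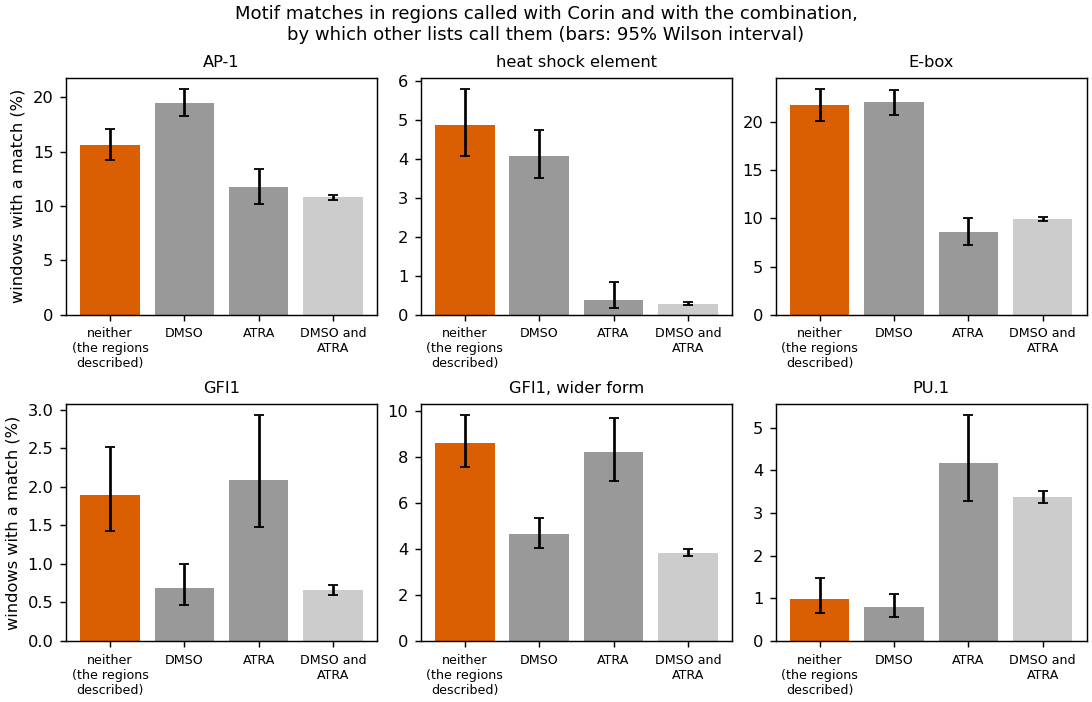
Share of 200-bp windows with each motif (y axis, %; bars show 95% Wilson intervals) among regions called with Corin and with the combination, split by which of the DMSO and ATRA lists also call them (x axis). Heat shock, AP-1 and E-box (CAGGTG) letters are high in the 2 left bars, without an ATRA call, and GFI1 letters and their wider form (AATC-type) in the bars without a DMSO call.

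Regions called in a single list place these shares. Regions called with Corin alone had AP-1 letters in 16.8% and heat shock elements in 1.06%, and those called with the combination alone had them in 4.04% and 1.51%. GFI1 letters stood in 0.778% with Corin alone and 0.851% with the combination alone, against 0.626% of all union regions. For AATC-type letters the shares were 5.93% and 5.41%, against 4.33%. Not every set without a DMSO call thus had the higher GFI1 share of the regions described. AP-1 letters were most frequent in regions called with DMSO and Corin, at 21.1%. A high AP-1 share was thus not particular to the regions described. CAGGTG letters were found in 20.1% of regions called with DMSO alone, 22.8% with Corin alone and 23.9% with the combination alone, against 6.06% with ATRA alone.

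Strength separated the motifs again. Each of the 4 classes of Corin −log10 p was set beside all other regions of the Corin list in the same −log10 p range. In the strongest class (607 regions) AP-1 letters stood in 38.4% (interval 34.6 to 42.3%), against 16.2% of the 54244 other Corin regions of that range. That range runs from 17.5 to 469.7, and the sets were not matched within it. In the 3 weaker classes the AP-1 shares were 5.44%, 5.48% and 13.1%, against 5.80%, 7.72% and 13.6% in the other Corin regions. The AP-1 share thus stood above that of other Corin regions in the strongest class, with the intervals apart, and at or below it in the weaker ones.

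AATC-type letters were likewise more frequent in the stronger classes, at 4.61%, 5.15%, 9.80% and 14.8% from the weakest to the strongest, while other Corin regions stayed between 3.97% and 5.03%. GFI1 letters were at 4.45% in the strongest class against 0.697%. Heat shock elements took another course, with 1.98%, 4.15%, 9.15% and 4.12%, so that the class next to the strongest was highest, against 0.490% to 1.21% in other Corin regions. In all 4 classes their interval lay above that of the other Corin regions. CAGGTG letters stood at 28.3%, 26.4%, 19.9% and 12.4% from the weakest class to the strongest, and at 24.5%, 21.97%, 15.3% and 11.2% in the other Corin regions. The intervals were apart in the 2 middle classes and overlapped in the outer ones. C/EBP letters stood at 5.77%, 6.31%, 13.9% and 21.3%, against 7.36%, 9.08%, 14.7% and 18.8%, and RUNX letters at 1.48%, 1.33%, 3.27% and 5.44%, against 1.51%, 2.01%, 3.60% and 5.09%. Both were thus above the other Corin regions in the strongest class and below them in the weaker ones, and the intervals overlapped in all 4 classes. The median GC content of the regions described went from 57.5% to 45.5% over the same classes.

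**Figure D4:**
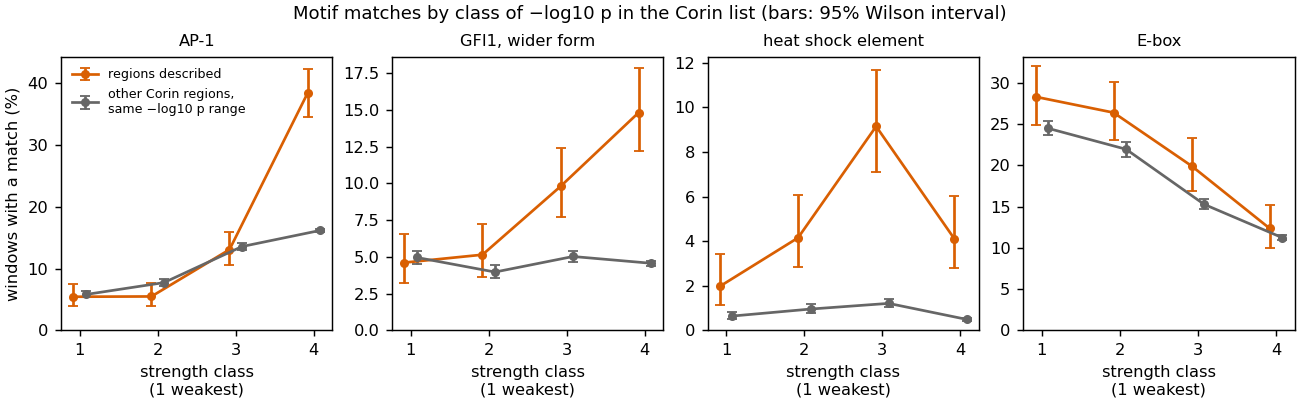
Share of windows with each motif (y axis, %) by class of Corin −log10 p (x axis, 4 classes of equal size, 1 weakest), for the regions described and for other Corin regions in the same −log10 p range, with 95% Wilson intervals. AP-1 letters part from the other Corin regions in class 4 (38.4% against 16.2%), heat shock elements are highest in class 3 (9.15%), and E-box (CAGGTG) letters are less frequent in the stronger classes of both sets. The wider GFI1 form is the AATC-type.

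Regions with different letters also differed in their −log10 p values in the 2 lists, which is a description because both lists chose the regions. Regions with AP-1 letters had a median −log10 p of 23.1 with Corin and 14.05 with the combination, and 73.1% of them had the higher value with Corin. For regions with a heat shock element the medians were 10.2 and 11.7, and 44.9% had the higher value with Corin. GFI1 regions had medians of 21.6 and 14.4. Regions with none of the AP-1, GFI1, AATC-type or heat shock letters had medians of 7.11 and 7.10, and 51.2% had the higher value with Corin. Over all 2428 regions that share was 54.5%. By percentile within each list, 71.8% of the 2428 ranked higher with Corin. This held for 86.3% with AP-1 letters, 64.4% with a heat shock element and 69.0% with none of the letters.

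AP-1 letters sat at the summit. Within 40 bp of it their density was 10.2 times that between 120 and 200 bp, against 5.48 times in regions called in all 4 lists. Heat shock elements were 4.34 times as dense near the summit as at the flanks, against 0.546 in regions called in all 4 lists. AATC-type letters had a ratio of 1.26 against 0.538, and CAGGTG letters 0.921 against 0.570. AP-1 matches were thus densest at the summit itself, heat shock elements over a broader stretch around it, and CAGGTG matches were spread evenly.

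**Figure D5:**
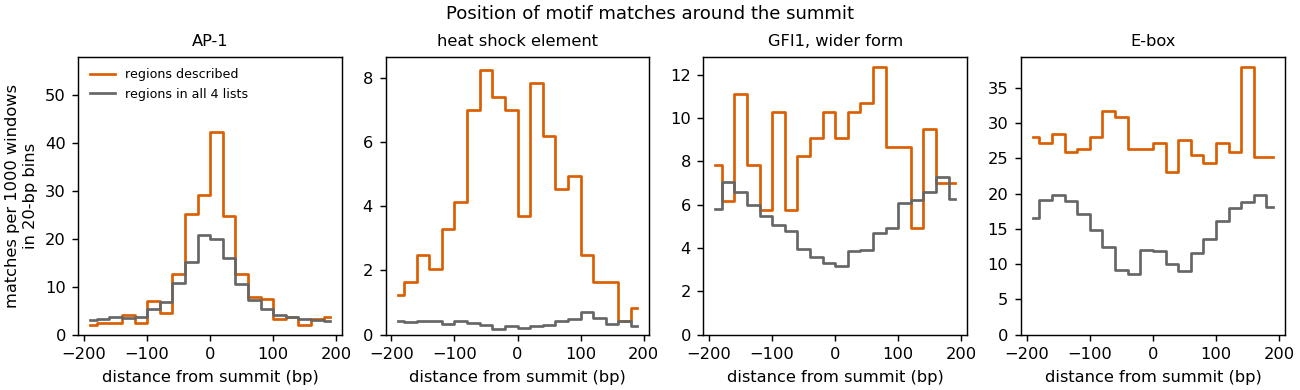
Matches per 1000 windows in bins of 20 bp (y axis) by distance of the match from the summit in bp (x axis), for the regions described and for regions called in all 4 lists. The wider GFI1 form is the AATC-type and the E-box is CAGGTG. AP-1 matches pile up at the summit in both sets, and heat shock elements are denser near it than at the flanks in the regions described.

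The regions were spread over the chromosomes unevenly. Chromosome 13 had the highest share, with 205 of its 7513 union regions (2.73%, interval 2.38 to 3.12%), and chromosome 11 had the lowest of the chromosomes with members, at 0.920%. On chromosome 13 the regions were mostly weak. It held 8.44% of all 2428 regions and 4.66% of union regions, but 16 of the 719 regions with a −log10 p of at least 10 in both lists, or 2.23%. Neighbouring regions lay a median of 371000 bp apart.

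A region lay within 10 kb of 1673 of 20033 protein-coding genes, which is 8.35%. Of these genes, 220 had 2 or more and 39 had 3 or more. The genes with the most were long. DLGAP2, a postsynaptic scaffold gene, had 8 among its 72 union regions, GPC5, a glypican gene, had 8 of 99, and RPS6KA2, a kinase of the ribosomal S6 kinase family, had 5 of 72. ST3GAL3, a sialyltransferase gene, had 5 of 47, and an overlapping readthrough gene, ENSG00000284989, shares them. NOL4L had 4 of 42, SH3RF3 4 of 61, SDK1 4 of 75 and MAD1L1 4 of 90, the last overlapping with ENSG00000286192. Among short genes, MST1R, which encodes the receptor RON, and VNN2 each had 3 of 8 union regions, HSPH1, a chaperone of the HSP110 family, and SLC12A7, a potassium chloride cotransporter gene, each had 3 of 9, and PCNT, a centrosome gene, had 3 of 17.

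Gene lists gave the following counts of genes with a region within 10 kb, to be read beside the 8.35% of all coding genes. Of 20 AP-1 factor genes, 2 had one (10.0%). BACH2, a transcriptional repressor of the same bZIP class, had 2 in an intron. The stronger (chr6:90087876-90088507) reached 156 reads over 13.1 with Corin (fold 11.1) and 127 over 13.9 with the combination (fold 8.57), and both hold AP-1 letters. ATF3, a stress-induced factor, had one with a fold of 3.47 and 5.29, and its heat shock element is printed above. Neither FOS nor JUN had a region within this distance.

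Of 20 genes for CoREST subunits and SNAG-domain factors, 5 had a region (25%), all of them modest. Of the 205 union regions of this list, 5 (2.44%) were of this kind, against 1.35% over all coding genes. With the gene body alone 2 of the 20 genes had a region. At GFI1 itself a region lay in an exon (chr1:92478480-92478777), 8148 bp from the start of the gene and 1708 bp from the nearest annotated transcript start, with 147 reads over 75.7 with Corin (fold 1.93) and 159 over 82.7 with the combination (fold 1.91). At GSE1, a CoREST-associated protein gene, the folds were 1.59 and 1.74. The region counted for HDAC1 lay in LCK, and those counted for RCOR2 and ZNF217 lay outside these genes. Of 26 neuronal genes with RE1 elements, which REST silences through CoREST, 3 had one (11.5%): GRIN1, TUBB3 and NRXN3. The one in an intron of NRXN3 was the strongest of the 3, with 138 reads over 40.1 with Corin and 165 over 47.0 with the combination.

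Of 29 genes of monocyte and granulocyte differentiation, 1 had a region (3.45%). Of the 210 union regions of this list, 2 (0.952%) were of this kind. The gene was LYZ, which encodes lysozyme. The stronger of its 2 regions lay 4519 bp from the start and outside the gene, with 194 reads over 58.8 with Corin and 237 over 70.7 with the combination. Of 20 retinoic acid response genes, 3 had one (15%), with 4 of their 188 union regions (2.13%) of this kind. RARA, the retinoic acid receptor alpha gene, had 2 in introns, of which the stronger (chr17:40314547-40314967) holds AP-1 letters and had a fold of 4.59 with Corin and 2.62 with the combination. DHRS3, a retinal reductase gene, had one with a fold of 2.05 and 2.19, and that counted for ASB2 lay in FAM181A.

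Of 32 adhesion and actin genes, 8 had a region (25%), and 9 of their 555 union regions (1.62%) were of this kind against 1.35% over all coding genes. The list therefore held many union regions, and the share per union region was near that of all coding genes. Besides the one by ITGA6, the highest-ranked lay near FLNA, the filamin A gene, with a fold of 4.24 and 5.22, and near VCL, the vinculin gene, with 1.94 and 2.00. The one in an intron of ITGB3, an integrin beta subunit of platelets, ranked lower in the combination list, with a fold of 6.44 and 3.08, and holds AP-1 letters. Of 16 MAPK feedback genes, DUSP5 had one (6.25%), of 20 erythroid and megakaryocyte genes, RUNX1 and MEIS1 (10.0%), and of 16 genes of other lineages, PECAM1 (6.25%).

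A list of 25 heat shock response genes was added after the heat shock words had been seen. Of these genes, 6 had a region (24.0%), and 8 of their 146 union regions (5.48%) were of this kind against 1.35% over all coding genes. At the start itself, 22 of the 25 genes had a peak in each of the 4 lists. Next to HSPA6, described above, HSPB1 had a region 586 bp beyond its 3′ end, with 738 reads over 518 with Corin (fold 1.42) and 591 over 485 with the combination (fold 1.22). HSPH1 had 3, the strongest in an exon with a fold of 2.55 and 2.18. HSP90AB1 had one that lay in SLC35B2, with a fold of 1.42 and 1.46. The one counted for HSP90AA1 lay 7210 bp outside the gene, with a Corin fold of 1.77. The one at CRYAB overlapped an annotated start and had a Corin fold of 2.31. Only the one at CRYAB had a heat shock element in its window. With the gene body alone 3 of the 25 genes had a region.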

How the data were processed

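The analysis started from 4 peak lists of ATAC-seq, 1 per group of 2 samples. The authors deposited narrowPeak lists, whose columns hold a score, a fold (a linear ratio of the summit to its local background), −log10 p and −log10 q values, and a summit offset in bp. These are the authors' own values and were used to describe, rank or filter peaks of their own list. Per the submitters' processing notes, cutadapt, Bowtie2, SAMtools, Picard and MACS2 were used with build hg38; settings are not given in the sources used here. No peak ended beyond an hg38 chromosome. The members, lists and tests were chosen with earlier results of these data known. The heat shock, AATC-type and CAGGTG motifs and the heat shock gene list were added after all words of 8 letters had been counted.

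Overlapping peaks (at least 1 bp) were merged with numpy 2.4.6 and pandas 2.3.3. Motifs were searched on both strands in 200-bp windows, centred on the Corin summit for the regions described and on the strongest summit elsewhere. Genes came from GENCODE release 44. Pileup and background were solved from p and fold, and the pileup was whole within 0.05 for at least 99.96% of peaks in each list. Intervals are 95% Wilson intervals. The functions were checked on simulated data. The rule for names took the 20 highest-ranked regions, the 15 genes with most regions within 10 kb, and up to 4 genes per list; further genes and regions with motif matches were named after their values were seen. No repeat annotation was used, and how reads with several matches were treated is not given in the sources used here. Some items that these rules select are not reported here.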

Additional observations from a re-analysis of the deposited data

How the results depend on the processing

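No paired analysis was possible because each group had 1 list with its replicates combined, and for the same reason no replicate could be left out. The number of regions was 1432 with a −log10 q of at least 5, and 4041 with lists of equal length. With −log10 q of at least 5 the share of windows with AP-1 letters was 22.3%, with GFI1 letters 3.003%, RUNX letters 4.05%, heat shock elements 6.42%, AATC-type letters 11.1% and CAGGTG letters 15.7%. With lists of equal length AP-1 letters were at 13.9% and heat shock elements at 3.81%. With an overlap of at least 50% RUNX letters were at 3.72%. In windows of 100 bp the shares were 12.4% for AP-1, 0.741% for GFI1, 1.89% for RUNX, 2.76% for heat shock elements, 4.65% for AATC-type and 11.1% for CAGGTG, against 6.77%, 0.321%, 2.40%, 0.297%, 1.91% and 6.25% of all union regions. In windows of 400 bp they were 18.2%, 2.76%, 4.45%, 6.10%, 14.5% and 40.03%, against 12.6%, 1.17%, 5.39%, 1.10%, 10.5% and 28.3%. Around the combination summit AP-1 letters were at 13.96%. Promoters held 25.7% with a limit of 2.5 kb and 9.80% with protein-coding starts only. The other 60 values for these results stayed within 1.5 times the count or within the 95% interval of the share. They include the lowest −log10 p of the DMSO list applied to every list, chosen after seeing the data, which left 2394 regions. Counts of genes by distance of 50 kb or by gene body changed for most lists. A region missing from a list may have been under its threshold, and how far depth set the calls was not tested.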
